A study of Mus musculus with 21 samples.

Results

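Immunoglobulin heavy and light chain transcripts were read by 56 of the 45037 probe sets on the array, leaving out controls. A probe set was a member if the platform annotation gave it any gene symbol that starts with Igh, Igk or Igl. Igll1, Iglon5 and Ighmbp2 were left out. Of the 56 members, 23 belong to the heavy chain, 29 to the kappa chain and 4 to the lambda chain. A single symbol was given to 43 members, and the 13 members with several symbols are named here by probe set ID alone. The ending _s_at or _x_at, which marks probe sets with probes that can match several transcripts, was carried by 21 members. V genes of a family are similar in sequence, so which V transcript a probe set read is uncertain, and probe sets of a locus are not replicates of each other.

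The series holds 21 arrays in 7 groups of 3. In 4 groups the RNA came from marrow cells sorted for B220, a surface marker of B cells: Blnk KO/LAP tg mice (LAP knockout-labelled), Blnk KO mice (knockout-labelled), Cebpb LAP transgenic mice and wild-type mice. The transgene encodes LAP, a C/EBPβ isoform that activates transcription. BLNK is the adaptor that carries signals of the pre-B cell receptor and the B cell receptor. The remaining 3 groups are LB31, a pre-B acute lymphoblastic leukaemia line from a Blnk KO mouse, grown with 5 ng/ml of interleukin 7. LB31 received a pMY retrovirus with Blnk cDNA (BLNK-labelled), with the loss-of-function mutant YF (YF-labelled) or with no insert (empty vector). All LB31 groups therefore share the Blnk knockout and come from a single line. The sources used here give no ages, no promoter for the LAP transgene, and no word on whether replicates are separate animals or cultures. The p-values therefore measure the spread between these arrays alone, and that spread may be technical.

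An antibody is built from a pair of heavy and a pair of light chains. The heavy chain gene is joined from V, D and J segments in pro-B cells and is first made as IgM, with Ighm as its constant region. A large pre-B cell pairs this chain with the surrogate light chain, made from Igll1 and Vpreb1, and then joins a light chain gene, kappa before lambda. The RAG1 and RAG2 proteins cut the DNA for these joins. Constant regions such as Igha, for IgA, and Ighg3, for IgG3, are used after class switching, and the plasma cell, which secretes antibody, carries immunoglobulin transcripts at very high levels.

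Levels are log2(signal + 4) after quantile normalization of the 21 arrays, where a level of 4.06 marks the array's 40th percentile. Within each group, pairs of arrays had r of 0.963 to 0.980 across probe sets. The median deposited signal was 26.8 to 31.4 in the LAP knockout-labelled and knockout-labelled arrays and 19.6 to 23.7 in the LAP transgenic and wild-type arrays, and the ratio of the Gapdh 3' to 5' control probe sets ran from 0.69 to 1.04. The Blnk probe set did not follow the labels. It averaged 12.03 in LAP knockout-labelled and 12.37 in knockout-labelled marrow, against 12.28 (LAP transgenic) and 12.44 (wild-type). In LB31 it averaged 8.56 in BLNK-labelled and 9.40 in YF-labelled cells, against 9.63 with the empty vector. Its place relative to the deletion and to the introduced cDNA is unknown here, so it checks nothing and the group names rest on the labels. Cebpb followed them in marrow, at 9.90 and 5.02 in LAP knockout-labelled and knockout-labelled marrow and 10.05 and 5.43 in LAP transgenic and wild-type marrow. In LB31 it averaged 10.11 with BLNK and 10.09 with YF, against 10.22 with the empty vector, close to the marrow groups with the transgene. The mean of 6 B lineage markers stood at 9.64 to 9.88 in LAP knockout-labelled, 9.92 to 10.31 in knockout-labelled, 10.10 to 10.48 in LAP transgenic and 10.26 to 10.41 in wild-type marrow. The mean of 7 neutrophil markers was also high in the sorted marrow, at 10.84 to 11.43, 9.82 to 10.89, 10.15 to 12.11 and 9.94 to 10.36 in the same group order, against 2.86 to 4.03 in LB31. The part of other marrow cells in the values below was not tested. In bulk samples, fewer cells of a type and less RNA per cell cannot be told apart.

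Most immunoglobulin probe sets had their lowest marrow mean in the group that carried both changes. Of the 56 members, 17 lay above the 40th percentile on every array of the LAP knockout-labelled group, against 34 (knockout-labelled), 35 (LAP transgenic) and 40 (wild-type). The group mean was lowest in LAP knockout-labelled marrow for 50 of the 56 members, and highest in wild-type marrow for 36. For 27 members, among them all 4 lambda probe sets, the means ran upward from LAP knockout-labelled through knockout-labelled and LAP transgenic to wild-type marrow. In LB31 23 members lay above that percentile with BLNK, 23 with YF and 21 with the empty vector. None of these counts was made over all probe sets, so no share over the array stands beside them. Each array has, by definition, the same share of all probe sets above its 40th percentile. The 56 members also include 12 that were too dim for the marrow fit below, so the order of their means rests on levels below that percentile.

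A filter kept 44 of the 56 members in the marrow fit (18 heavy, 22 kappa and 4 lambda), 30 in the LB31 fit (12, 17 and 1) and 46 over all arrays. The other members were too dim for a test, and a member could pass through a group in which it was high. Adjusted p-values are from limma, two-sided, with Benjamini-Hochberg adjustment over all probe sets of a fit, and a change is called at an adjusted p under 0.05. Changes are log2 differences ± SE with 3 arrays a group. For members that are dim in a group, the size rests partly on levels below the filter level and is uncertain. With lower levels raised to that level, such changes could shrink. In LAP knockout-labelled against LAP transgenic marrow, Igk 1426178_at went from -1.25 to 0.0. In LAP knockout-labelled against wild-type marrow, 1451965_at stayed at -3.3.

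LAP knockout-labelled marrow had less immunoglobulin transcript than wild-type marrow in all 3 chains. In this comparison 37 of the 44 tested members fell and 0 rose, where 12.6% of all probe sets tested fell, 12.6% rose and 25.2% were called. The falls took in 11 of 18 heavy, 22 of 22 kappa and 4 of 4 lambda members. The median change was -2.17 over the 44 members and 0.01 over all probe sets tested. It was -1.20 for the heavy, -2.81 for the kappa and -6.58 for the lambda members. Against knockout-labelled marrow 27 members fell and 0 rose, beside 3.17% of all probe sets that fell, 2.03% that rose and 5.20% called. Of these, 4 were heavy, 19 kappa and 4 lambda, and the median over the tested members was -1.30. Against LAP transgenic marrow 32 fell and 0 rose (7 heavy, 21 kappa and 4 lambda), with a median of -1.60, beside 9.86% of all probe sets that fell, 11.3% that rose and 21.2% called.

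Fewer members were called with either genetic change alone. Knockout-labelled against wild-type marrow had 15 members lower and 1 higher, with a median of -0.68, beside 6.45% of all probe sets lower, 6.24% higher and 12.7% called. The 15 lower members were 1 heavy, 10 kappa and 4 lambda. On the values as deposited the members split into 3 higher and 13 lower. LAP transgenic against wild-type marrow had 5 lower and 1 higher, with a median of -0.40, beside 1.36% of all probe sets lower, 1.23% higher and 2.60% called. Leaving out an array moved this last count to 3 (LAP transgenic array 3), 1 (wild-type array 1), 2 (wild-type array 2) and 1 (wild-type array 3). The interaction, the log2 change with LAP on the knockout-labelled background less that on the wild-type background, was called negative for 16 members (4 heavy, 8 kappa and 4 lambda) and positive for 0. Of all probe sets, 0.850% had a called negative interaction, 0.329% a positive one and 1.18% either. These comparisons share arrays. On the values as deposited, the split of all called probe sets shifted to 8721 higher and 1522 lower in LAP knockout-labelled against wild-type marrow, where quantile normalization gave 3802 and 3791. It shifted to 10720 and 1084 against LAP transgenic marrow, where quantile normalization gave 3417 and 2972, and to 6258 and 652 in knockout-labelled against wild-type marrow, where it gave 1881 and 1944.

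Igha, the constant region of IgA, had the widest spread of the constant regions and was read by 3 probe sets. The deposited signal of 1421653_a_at was 5.32, 5.81 and 36.9 in LAP knockout-labelled marrow and 5805, 4866 and 5552 in knockout-labelled marrow. It was 3444, 4424 and 7131 in LAP transgenic marrow, against 2668, 2007 and 2831 in wild-type marrow. The LAP knockout-labelled arrays were thus far below every other marrow array, with no overlap.

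On the normalized log2 scale Igha 1421653_a_at stood at 3.07, 3.05 and 4.86 in LAP knockout-labelled marrow. Its levels were 12.56, 12.29 and 12.31 in knockout-labelled marrow, 12.02, 12.29 and 13.11 in LAP transgenic marrow, and 11.55, 11.29 and 11.54 in wild-type marrow. In LAP knockout-labelled marrow it fell, with changes of -7.80 ± 0.38 against wild-type (adjusted p = 6.83e-09), -8.73 ± 0.38 against knockout-labelled (adjusted p = 8.89e-09) and -8.82 ± 0.38 against LAP transgenic marrow (adjusted p = 3.18e-09). The interaction was -9.74 ± 0.54 (adjusted p = 4.26e-07). The probe sets 1425763_x_at and 1429381_x_at of Igha fell by 7.67 and 5.94 against wild-type marrow and had interactions of -10.07 and -8.50. In LAP knockout-labelled marrow only 1, 1 and 2 of 3 arrays lay above the filter level for 1421653_a_at, 1425763_x_at and 1429381_x_at, so the exact sizes rest partly on levels below it. With lower levels raised to the filter level, the changes against wild-type marrow were -7.13, -6.69 and -5.93 and the interactions -9.07, -9.08 and -8.47.

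Igha was not lower with either genetic change alone. In knockout-labelled marrow the 3 probe sets differed from wild-type marrow by 0.93 ± 0.38, 1.08 ± 0.38 and 1.17 ± 0.28, and only the last of these, 1429381_x_at, was called (adjusted p = 0.0129). That call was lost without knockout-labelled array 1, at 1.06 and an adjusted p of 0.0595. In LAP transgenic marrow they differed from wild-type by 1.01 ± 0.38, 1.32 ± 0.38 and 1.38 ± 0.28, again with 1429381_x_at called (adjusted p = 0.0199). Without wild-type array 1, 2 or 3 its adjusted p was 0.0823, 0.0687 and 0.0712, and without LAP transgenic array 3, the highest for Igha, the change was 0.94. That array also had the highest neutrophil marker mean of the marrow arrays, 12.11. In LB31 the 3 probe sets averaged between 2.98 and 5.19, close to the filter level. Only 1421653_a_at and 1429381_x_at entered the LB31 fit, and neither was called in a comparison within LB31.

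Jchain, which encodes the joining chain of secreted IgA and IgM, had levels of 3.78, 4.06 and 4.47 in LAP knockout-labelled marrow. It stood at 9.86, 9.34 and 9.61 in knockout-labelled marrow, 9.31, 10.00 and 11.45 in LAP transgenic marrow, and 9.56, 9.36 and 9.85 in wild-type marrow. Against wild-type marrow it fell by 5.48 ± 0.39 in LAP knockout-labelled marrow (adjusted p = 2.18e-07), and the change in knockout-labelled marrow was 0.01 ± 0.39 (adjusted p = 0.989). Sdc1, the plasma cell surface antigen CD138, and Prdm1, the plasma cell transcription factor Blimp-1, had another pattern. In knockout-labelled marrow they fell against wild-type by 2.38 ± 0.27 and 1.22 ± 0.19 (adjusted p = 5.89e-05 and 0.000681). Their change in LAP knockout-labelled against knockout-labelled marrow was 0.57 ± 0.27 and -0.11 ± 0.19 (adjusted p = 0.308 and 0.832). The mean of 7 plasma cell markers, Jchain among them, ran from 6.77 to 6.88 in LAP knockout-labelled, 7.57 to 7.74 in knockout-labelled, 8.01 to 8.46 in LAP transgenic and 8.03 to 8.26 in wild-type marrow. Of 6 tested against wild-type marrow, 4 fell and 1 rose in LAP knockout-labelled marrow, and 3 fell and 1 rose in knockout-labelled marrow. Tnfrsf17, the plasma cell receptor BCMA, averaged 3.31 to 3.77 in the marrow groups, below the filter level. The part of plasma cell content in the Igha values was not tested.

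Ighm, the IgM constant region, was read by 11 probe sets, of which a pair was far brighter than the rest. The level of 1427329_a_at was 13.10, 12.94 and 12.85 in LAP knockout-labelled and 13.18, 13.15 and 12.77 in knockout-labelled marrow. It was 13.28, 13.31 and 13.27 in LAP transgenic marrow, against 13.16, 13.16 and 13.14 in wild-type marrow. In LB31 it averaged 12.53 ± 0.02 with BLNK and 12.51 ± 0.03 with YF, against 12.60 ± 0.09 with the empty vector (SD, n = 3). These levels lie at or above the 99.5th percentile of their arrays in marrow, near the top of the scale, where a difference can be compressed. Its change in LAP knockout-labelled against wild-type marrow, -0.19 ± 0.09, was not called (adjusted p = 0.154). The other bright probe set, 1427351_s_at, fell by 0.43 ± 0.11 (adjusted p = 0.0117), or by 0.34 with an adjusted p of 0.0585 without LAP knockout-labelled array 3.

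The remaining 9 Ighm probe sets averaged 2.26 to 7.59 across the marrow groups. In LAP knockout-labelled against wild-type marrow 4 of 8 tested Ighm probe sets fell, namely 1427351_s_at and the dim 1425247_a_at, 1425324_x_at and 1427756_x_at. Of the dim ones, 1425247_a_at changed by -1.53 (adjusted p = 0.0144), 1425324_x_at was at least 1.85-fold lower (adjusted p = 0.0216) and 1427756_x_at at least 1.78-fold lower (adjusted p = 0.0457). The call of 1425247_a_at was lost without LAP knockout-labelled or wild-type array 3, that of 1425324_x_at without LAP knockout-labelled array 2 or wild-type array 1 or 3, and that of 1427756_x_at without any array of either group. In LAP knockout-labelled against LAP transgenic marrow 3 of the 8 fell: 1427329_a_at by 0.32 ± 0.09 (adjusted p = 0.0227), 1427351_s_at by 0.48 ± 0.11 (adjusted p = 0.00697) and 1452535_at by 0.72 ± 0.19 (adjusted p = 0.0143). On the values as deposited these were -0.20 (adjusted p = 0.0726), -0.29 (adjusted p = 0.0274) and -0.29 (adjusted p = 0.195). The call of 1427329_a_at was also lost without LAP knockout-labelled array 2 or 3 or LAP transgenic array 1 or 2, and that of 1452535_at without LAP transgenic array 1 or 3. The tested 1425385_a_at and 1427870_x_at were called in no comparison, and 1426196_at, 1427869_at and 1451949_at, with marrow group means of 2.26 to 3.60, were not tested. No Ighm probe set was called in LAP knockout-labelled against knockout-labelled, in knockout-labelled against wild-type or in LAP transgenic against wild-type marrow. Ighg3, the IgG3 constant region, had 4 probe sets with group means of at most 5.14 in marrow. In LAP knockout-labelled against wild-type marrow 1427503_at fell by 1.31 ± 0.33 (adjusted p = 0.0107), or by 0.85 without LAP knockout-labelled array 1 and by 0.82 with a pseudocount of 16, calls kept in both. For 1447998_at the means were 2.58 and 4.05, both under the filter level, so no fold is given; its fall (adjusted p = 0.0210) was not called on the values as deposited or without LAP knockout-labelled array 2 or 3. Ighg3 1426198_at and 1426199_x_at, with marrow group means of 2.29 to 3.35, were not tested.

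Ighv14-2, a heavy chain V gene read by 1455530_at, was called in all 5 comparisons of marrow pairs, as was Igha 1429381_x_at alone among the other heavy members. Its level was 8.82, 8.80 and 8.96 in LAP knockout-labelled, 10.34, 10.38 and 10.02 in knockout-labelled, and 11.35, 11.37 and 11.52 in LAP transgenic marrow, against 12.01, 12.03 and 11.98 in wild-type marrow. The 4 groups did not overlap. It fell by 3.15 ± 0.09 in LAP knockout-labelled (adjusted p = 5.06e-11), 1.76 ± 0.09 in knockout-labelled (adjusted p = 9.41e-08) and 0.59 ± 0.09 in LAP transgenic marrow (adjusted p = 0.00604), each against wild-type. The interaction was -0.79 ± 0.13 (adjusted p = 0.00818). In LB31 its group means were 5.64 to 5.77.

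Kappa light chain transcripts were lowest in LAP knockout-labelled marrow, and several bright kappa probe sets were also bright in LB31. Among the bright kappa members are 3 probe sets annotated with the same 5 symbols, the constant region Igkc among them. The level of 1427455_x_at was 10.14, 9.47 and 9.72 in LAP knockout-labelled and 12.57, 12.78 and 12.26 in knockout-labelled marrow. It was 13.04, 13.05 and 12.95 in LAP transgenic marrow, against 13.02, 13.02 and 13.00 in wild-type marrow. LAP knockout-labelled marrow lay below every other array, with a fall of 3.24 ± 0.14 against wild-type (adjusted p = 2.39e-09) and an interaction of -2.76 ± 0.20 (adjusted p = 8.05e-06). In knockout-labelled marrow it fell by 0.48 ± 0.14 (adjusted p = 0.0430). The probe sets 1427660_x_at and 1452417_x_at, with the same symbols, fell by 1.22 ± 0.09 and 1.18 ± 0.09 in LAP knockout-labelled marrow, less than 1427455_x_at. In knockout-labelled marrow they differed from wild-type by -0.05 ± 0.09 and 0.03 ± 0.09. In wild-type marrow all 3 probe sets lay at or above the 99.3rd percentile of their arrays, where a difference can be compressed.

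Igkv8-30, a kappa V gene read by 1452463_x_at, had the largest kappa change in LAP knockout-labelled against wild-type marrow. Its level was 8.09, 7.18 and 7.72 in LAP knockout-labelled and 12.38, 12.60 and 11.70 in knockout-labelled marrow. It was 11.83, 12.77 and 12.30 in LAP transgenic marrow, against 12.48, 12.25 and 12.75 in wild-type marrow. The other 3 marrow groups overlapped. Against wild-type marrow it fell by 4.83 ± 0.27 in LAP knockout-labelled marrow (adjusted p = 2.16e-08), while its change was -0.27 ± 0.27 in knockout-labelled (adjusted p = 0.599) and -0.19 ± 0.27 in LAP transgenic marrow (adjusted p = 0.754). The interaction was -4.37 ± 0.38 (adjusted p = 4.09e-05).

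Igk 1452557_a_at, annotated to the kappa locus as a whole, was at 5.04, 4.96 and 5.05 in LAP knockout-labelled and 7.36, 7.49 and 7.13 in knockout-labelled marrow. It was 7.82, 8.0 and 7.28 in LAP transgenic marrow, against 8.07, 8.09 and 7.98 in wild-type marrow. The fall against wild-type was 3.03 ± 0.17 in LAP knockout-labelled (adjusted p = 1.79e-08) and 0.72 ± 0.17 in knockout-labelled marrow (adjusted p = 0.0109). The change in knockout-labelled marrow was -0.40 with an adjusted p of 0.110 on the values as deposited. Igk 1425738_at fell by 3.62 ± 0.38 in LAP knockout-labelled and by 1.75 ± 0.38 in LAP transgenic marrow against wild-type (adjusted p = 9.09e-06 and 0.0276). The LAP transgenic call was lost when any LAP transgenic or wild-type array was left out. Igk 1426178_at was under the filter level on every LAP knockout-labelled array, at least 1.30-fold lower than in wild-type marrow (adjusted p = 0.000277) and at least 1.46-fold lower than in knockout-labelled marrow (adjusted p = 0.000734). Against LAP transgenic marrow, also under that level, it was called lower (adjusted p = 0.0130), and no fold is given. Igk 1427757_at, with group means of 2.22 to 3.86, was not tested.

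Of the 16 kappa probe sets annotated to a single Igkv gene, 11 entered the marrow fit and all 11 fell in LAP knockout-labelled against wild-type marrow, with a median of -3.26. In knockout-labelled against wild-type marrow 7 of the 11 fell, with a median of -1.19, and in LAP transgenic against wild-type marrow 0 of the 11 were called, with a median of -0.44. Igkv9-120 had probe sets that differed: 1460423_x_at fell by 4.01 ± 0.19 in LAP knockout-labelled marrow (adjusted p = 4.46e-09), and 1452536_s_at by 0.79 ± 0.16 (adjusted p = 0.00228). Several V gene members were below the filter level on every LAP knockout-labelled array, so that only a bound can be given against that level. Relative to wild-type marrow, LAP knockout-labelled marrow was at least 7.69-fold lower for Igkv6-14 1427860_at, at least 5.60-fold lower for Igkv15-103 1427837_at, at least 3.88-fold lower for Igkv4-68 1427857_x_at and at least 3.20-fold lower for Igkv4-72 1426201_at (adjusted p = 1.27e-06, 1.25e-06, 5.25e-08 and 6.94e-06).

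Probe sets of several kappa V genes were dimmer and moved the same way. The 3-symbol probe set 1451965_at was at 4.06, 4.16 and 4.15 in LAP knockout-labelled and 5.30, 5.61 and 4.94 in knockout-labelled marrow. It was 7.06, 6.87 and 7.08 in LAP transgenic marrow, against 7.47, 7.54 and 7.27 in wild-type marrow. It fell against wild-type by 3.30 ± 0.17 in LAP knockout-labelled marrow (adjusted p = 1.10e-08) and by 2.14 ± 0.17 in knockout-labelled marrow (adjusted p = 3.14e-06), the largest called kappa change between knockout-labelled and wild-type marrow. Igkv14-111 1451951_at and Igkv6-20 1451962_at fell in knockout-labelled marrow by 1.45 and 1.33 (adjusted p = 0.00322 and 0.0371), and in LAP knockout-labelled marrow by 2.59 and 3.05 (adjusted p = 1.13e-05 and 5.46e-05). Only 2 and 1 of the 3 LAP knockout-labelled arrays lay above the filter level for them, and with lower levels raised to it the changes were -2.33 and -1.91. The kappa members outside the marrow fit, 7 of 29, had marrow group means of 2.20 to 4.03.

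Lambda light chain transcripts had the largest median changes of the 3 chains in marrow. Iglv1, a lambda V gene, was read by 3 probe sets. The level of 1430523_s_at was 4.52, 5.08 and 4.83 in LAP knockout-labelled and 9.12, 9.82 and 9.18 in knockout-labelled marrow. It was 11.12, 11.16 and 10.84 in LAP transgenic marrow, against 11.97, 12.03 and 11.77 in wild-type marrow. The groups did not overlap. It fell against wild-type by 7.11 ± 0.18 in LAP knockout-labelled (adjusted p = 1.31e-11), 2.55 ± 0.18 in knockout-labelled (adjusted p = 1.06e-06) and 0.88 ± 0.18 in LAP transgenic marrow (adjusted p = 0.0217). The call in LAP transgenic marrow was lost without LAP transgenic array 3 and without wild-type array 1, 2 or 3, with adjusted p-values of 0.0579 to 0.0942.

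The 3 Iglv1 probe sets were unequal in knockout-labelled marrow. Iglv1 1447918_x_at was at 4.18, 3.43 and 3.49 in LAP knockout-labelled and 6.75, 7.43 and 7.15 in knockout-labelled marrow. It was 11.53, 11.28 and 11.11 in LAP transgenic marrow, against 11.89, 11.96 and 11.59 in wild-type marrow. Its fall against wild-type was 8.11 ± 0.21 in LAP knockout-labelled (adjusted p = 1.31e-11) and 4.70 ± 0.21 in knockout-labelled marrow (adjusted p = 2.98e-08). For Iglv1 1427292_at the falls were 5.89 ± 0.20 and 1.39 ± 0.20. The probe set with 2 symbols, 1424931_s_at, averaged 5.91 ± 0.16, 10.08 ± 0.29 and 11.18 ± 0.22 in LAP knockout-labelled, knockout-labelled and LAP transgenic marrow, against 11.97 ± 0.13 in wild-type marrow (SD, n = 3). All 4 lambda interactions were negative, between -2.90 and -3.68. For 1447918_x_at only 1 of 3 LAP knockout-labelled arrays lay above the filter level, and with lower levels raised to it the change against wild-type was -7.71 and the interaction -2.50.

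Markers of later B cells moved alongside the light chains. The mean of 6 immature and mature B markers was 5.98 to 6.38 in LAP knockout-labelled, 8.62 to 8.86 in knockout-labelled and 9.60 to 9.76 in LAP transgenic marrow, against 10.13 to 10.32 in wild-type marrow. All 6 fell in LAP knockout-labelled against each other marrow group. Pro-B and large pre-B markers, 7 genes, ran from 10.78 to 10.98, 10.75 to 10.87 and 9.57 to 9.74, against 9.22 to 9.47 in the same order. Megakaryocyte markers, 5 genes, all rose in LAP knockout-labelled marrow, where they ran from 9.47 to 10.08, against 8.04 to 8.10 in wild-type marrow. Plasmacytoid dendritic cells, which carry B220, are also a possible part of the sort: their 4 markers ran from 6.07 to 7.20 in LAP knockout-labelled, 8.33 to 8.88 in knockout-labelled and 7.32 to 7.55 in LAP transgenic marrow, against 8.03 to 8.42 in wild-type marrow. All 4 fell in LAP knockout-labelled against both knockout-labelled and wild-type marrow. The part of cell type content in the immunoglobulin values was not tested.

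Genes that act on the immunoglobulin loci or pair with their products were taken from lists. Of 6 tested partner chain genes, 3 rose and 2 fell in LAP knockout-labelled against wild-type marrow. Igll1 and Vpreb1, the surrogate light chain, rose in LAP knockout-labelled against wild-type marrow by 2.75 ± 0.16 and 2.04 ± 0.11 (adjusted p = 2.59e-08 and 1.69e-08). In knockout-labelled marrow they rose by 2.32 ± 0.16 and 1.66 ± 0.11 (adjusted p = 7.87e-07 and 7.33e-07). Their change in LAP knockout-labelled against knockout-labelled marrow, 0.43 ± 0.16 and 0.38 ± 0.11, was not called. Cd79b, of the signalling pair of the membrane receptor, fell by 0.82 ± 0.10 in LAP knockout-labelled against wild-type marrow (adjusted p = 4.50e-05). Cd79a, the other gene of the pair, averaged 8.92 ± 0.05 in LAP knockout-labelled marrow and 8.93 ± 0.11 in wild-type marrow (SD, n = 3), and was not called (adjusted p = 0.982).

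Of 9 tested recombination genes, 1 rose and 4 fell in LAP knockout-labelled against wild-type marrow. Brwd1, a chromatin reader used in kappa recombination, averaged 4.43 ± 0.11, 6.26 ± 0.22 and 8.56 ± 0.09 in LAP knockout-labelled, knockout-labelled and LAP transgenic marrow, against 9.20 ± 0.08 in wild-type marrow (SD, n = 3). Its fall in LAP knockout-labelled against wild-type marrow was 4.77 ± 0.13 (adjusted p = 2.19e-11). Dntt, which adds bases at the joins, rose by 2.07 ± 0.25 (adjusted p = 3.03e-05). Xrcc5, also on this list, fell by 1.20 ± 0.16 (adjusted p = 7.47e-05). Rag1 was bright in every marrow group, with its lowest mean, 11.71 ± 0.26, in LAP knockout-labelled marrow. Its highest mean, 12.22 ± 0.10, was in wild-type marrow (SD, n = 3). Of 14 transcription factors of immunoglobulin genes, 8 fell and 0 rose, Ikzf3 (Aiolos) by 2.82 ± 0.15 and Pou2f2 (Oct-2) by 1.94 ± 0.26 (adjusted p = 1.06e-08 and 8.99e-05).

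In LB31, several kappa probe sets read higher in BLNK-labelled than in empty-vector cells. Of 30 tested members 8 rose and 0 fell, where 5.57% of all probe sets tested rose, 5.82% fell and 11.4% were called. All 8 were among the 17 tested kappa members, whose median change was 0.58, and 0 of 12 heavy members and 0 of 1 lambda member were called. Leaving out BLNK-labelled array 2 or 3 left 5 called members, and the count was 3 over members with 1 symbol. Of the 8, 5 are probe sets with several symbols.

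The 5-symbol probe set 1427455_x_at was at 12.26, 12.28 and 12.27 in BLNK-labelled and 11.80, 11.82 and 11.84 in YF-labelled cells, against 11.60, 11.76 and 11.71 with the empty vector. BLNK-labelled cells lay above every other LB31 array, by 0.58 ± 0.04 against the empty vector (adjusted p = 1.31e-06). The probe sets 1427660_x_at and 1452417_x_at, of the same symbols, rose by 0.33 ± 0.04 and 0.34 ± 0.04 (adjusted p = 0.000159 and 0.000203). Igk 1452557_a_at was at 7.99, 8.16 and 7.96 in BLNK-labelled and 7.08, 7.25 and 6.91 in YF-labelled cells, against 7.63, 7.16 and 6.91 with the empty vector. It rose by 0.80 ± 0.15 in BLNK-labelled cells (adjusted p = 0.00412). The other tested Igk probe sets were not called. Igk 1425738_at changed by -0.62 ± 0.44 (adjusted p = 0.442) and Igk 1426178_at by 0.43 ± 0.77 (adjusted p = 0.794).

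Igkv4-68 1427857_x_at was at 7.36, 7.50 and 7.02 in BLNK-labelled and 6.50, 6.71 and 6.80 in YF-labelled cells, against 6.49, 6.63 and 6.56 with the empty vector. Its rise in BLNK-labelled cells was 0.73 ± 0.13 (adjusted p = 0.00243). Igkv8-30 1452463_x_at was at 12.21, 12.23 and 12.19 in BLNK-labelled and 11.70, 11.69 and 11.75 in YF-labelled cells, against 11.55, 9.92 and 11.48 with the empty vector. Its rise of 1.22 ± 0.30 (adjusted p = 0.0183) rested in size on the low empty-vector array 2: without that array it was 0.69 (adjusted p = 6.46e-07), and without any of the BLNK-labelled arrays the adjusted p was 0.0554 to 0.0600. The 3-symbol probe set 1451965_at had the largest rise, 1.29 ± 0.32 (adjusted p = 0.0204), a call lost without any of the BLNK-labelled arrays or empty-vector array 3.

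YF-labelled cells had 0 of 30 members called by limma against the empty vector, with a median of 0.10, where 0.115% of all probe sets rose, 0.112% fell and 0.227% were called. At an unadjusted p under 0.05 there were 5 members. The count was 1 on the values as deposited (Igkv8-30 1452463_x_at, higher by 1.15) and 1 with median centring (1427455_x_at, higher by 0.40). Without empty-vector array 1 it was 2, both bright Ighm probe sets, which changed by -0.14 and -0.25. The 17 tested kappa members changed by -0.17 to 0.73 in YF-labelled cells. BLNK-labelled against YF-labelled cells had 7 members higher and 0 lower, all kappa, beside 2.50% of all probe sets higher, 3.84% lower and 6.34% called. On the values as deposited this became 1 higher and 1 lower, and with median centring 4 higher and 0 lower. Leaving out BLNK-labelled array 1 or 2 or YF-labelled array 1 left 4. Of the 7, 1451965_at had the largest rise, 1.46 ± 0.32 (adjusted p = 0.0161). The probe set 1426200_at was higher by 0.67 ± 0.16 (adjusted p = 0.0268) and Igkv4-68 1427857_x_at by 0.62 ± 0.13 (adjusted p = 0.0112). Each of these calls was lost without BLNK-labelled array 1 or 2 or YF-labelled array 1. Those of 1426200_at and 1451965_at were also lost without YF-labelled array 2, and that of 1426200_at without BLNK-labelled array 3. The limma calls of 1426200_at and 1427857_x_at were also lost as deposited (adjusted p = 0.265 and 0.348) and with median centring (adjusted p = 0.0558 and 0.075). The probe set 1427455_x_at was higher by 0.45 ± 0.04 (adjusted p = 1.99e-05) and Igk 1452557_a_at by 0.95 ± 0.15 (adjusted p = 0.00175). The value of Igk 1452557_a_at had an adjusted p of 0.0558 on the values as deposited. Igk 1425738_at changed by -0.93 ± 0.44 and was not called (adjusted p = 0.29).

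Of 14 transcription factors of immunoglobulin genes, 5 rose and 2 fell in BLNK-labelled against empty-vector cells. Irf4, a transcription factor that binds kappa enhancers, rose by 1.31 ± 0.06 (adjusted p = 5.42e-08) and Mef2c by 0.82 ± 0.08 (adjusted p = 2.14e-05). Spib fell by 0.85 ± 0.05 (adjusted p = 5.6e-07). Of 6 tested recombination genes 2 fell and 0 rose, Dntt by 2.72 ± 0.05 (adjusted p = 9.76e-12). Of 6 partner chain genes 5 fell and 0 rose, Cd79a by 0.51 ± 0.05 (adjusted p = 2.80e-05) the most. In YF-labelled cells Irf4 differed from the empty vector by 0.21 ± 0.06 (adjusted p = 0.155), and Dntt fell by 0.32 ± 0.05 (adjusted p = 0.0339).

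Empty-vector LB31 was also set against knockout-labelled marrow, which carries the same knockout label. Culture, leukaemia, the mix of sorted cells and the Cebpb level, 10.22 in empty-vector LB31 against 5.02 in knockout-labelled marrow, cannot be told apart in this comparison. Of 46 tested members 28 were lower in LB31 and 3 higher, beside 27.6% of all probe sets lower, 29.3% higher and 56.9% called. The lower ones were 9 of 18 heavy, 15 of 24 kappa and 4 of 4 lambda. Igha 1425763_x_at was at least 222-fold lower in LB31 (adjusted p = 4.38e-15), Iglv1 1427292_at at least 28.6-fold (adjusted p = 2.14e-11) and Igkv9-120 1460423_x_at at least 12.9-fold (adjusted p = 2.37e-12). Iglv1 1430523_s_at fell by 6.25 ± 0.35 (adjusted p = 1.33e-12), or by 5.19 with lower levels raised to the filter level, which 1 of 3 empty-vector arrays passed. LAP knockout-labelled marrow was also low for these members. Igha 1425763_x_at averaged 3.10 there and 2.98 in empty-vector LB31, and Iglv1 1427292_at 4.39 and 2.76. Igkv9-120 1460423_x_at averaged 4.65 and 3.19, and Iglv1 1430523_s_at 4.81 and 3.12. LB31 was not tested against LAP knockout-labelled marrow.

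The 3 higher members were all kappa. Igkv4-68 1427857_x_at was at 6.49, 6.63 and 6.56 in empty-vector LB31, against 4.82, 4.86 and 4.80 in knockout-labelled marrow, a rise of 1.73 ± 0.18 (adjusted p = 4.25e-08), or 1.01 (adjusted p = 0.000515) on the values as deposited. The probe set 1426200_at, with 2 symbols, rose by 1.16 ± 0.18 (adjusted p = 7.37e-06), or by 0.40 and no longer called on the values as deposited. Igkv19-93 1427856_a_at was at least 1.10-fold higher (adjusted p = 0.0348), a call lost as deposited and without knockout-labelled array 1 or 2 or empty-vector array 2 or 3. The bright Ighm probe sets 1427329_a_at and 1427351_s_at fell by 0.43 ± 0.08 and 0.55 ± 0.10 (adjusted p = 7.07e-05 and 5.57e-05), but with median centring they were higher in LB31, by 0.28 and 0.10. The dimmer Ighm 1452535_at fell by 2.54 ± 0.25 (adjusted p = 1.58e-08), a call kept under every alternative run. Igk 1452557_a_at differed by -0.09 ± 0.17 (adjusted p = 0.674). Igk 1425738_at changed by -1.37 ± 0.45 (adjusted p = 0.0127), a call lost without knockout-labelled array 2 or empty-vector array 3. Igk 1426178_at changed by -1.52 ± 0.55 (adjusted p = 0.0223), or by -0.47 with lower levels raised to the filter level. The call of 1426178_at was lost without knockout-labelled array 2 or empty-vector array 1 or 2. Rag1 and Rag2 were near the bottom of the scale in LB31, at 2.25 ± 0.16 and 2.28 ± 0.11, against 11.97 ± 0.37 and 9.19 ± 0.20 in knockout-labelled marrow (SD, n = 3).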

How the data were processed

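Biotin-labelled cRNA from 100 ng of total RNA per sample was hybridised to Affymetrix mouse genome arrays, per the labels. The authors deposited linear intensity values, made with MAS5 per the submitters' processing notes; its version and any scaling target are not given in the sources used here. Signals plus 4 were taken to log2 and quantile normalized over 21 arrays, which removes true differences in total message. Probe sets were tested in a fit where 3 or more of its arrays had a deposited signal over that array's 40th percentile. The fits used limma 3.58.1 (lmFit, eBayes with trend) in R 4.3.3 over 12 marrow, 9 LB31 or all 21 arrays, with no covariate, in 10 comparisons, and the code was tested on simulated data. The number of arrays limits precision.

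Symbols came from the platform annotation: 34945 probe sets had 1 symbol, 932 several and 9160 none here. Of the 28 member genes, 27 matched RefSeq (GRCm38.p6) by Entrez ID. Sequences of the members were not used here. Members, gene lists and markers were chosen with earlier results of these data known. Named were all constant region members with 1 symbol, the 4 largest falls and rises among called members of a comparison (3 for the interaction), and up to 3 called genes per list; further members are named to account for counts or to compare probe sets of 1 annotation. A listed gene was represented by its single-symbol probe set with the highest mean. Alternatives were other scalings, a pseudocount of 16, no filter, fewer members, a replicate block and leaving out each array. Changes with lower levels raised to the filter level were added after seeing the data.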

Additional observations from a re-analysis of the deposited data

Results flagged for a closer look

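The LAP change in knockout-labelled marrow differed from the LAP change in wild-type marrow, by a called interaction in the limma fit, for 16 immunoglobulin probe sets, all of them negative. Those with 1 symbol for a constant region or a whole locus were the 3 Igha probe sets and an Igk probe set. The interaction was -10.07 for Igha 1425763_x_at, -9.74 for Igha 1421653_a_at, -8.50 for Igha 1429381_x_at and -1.96 for Igk 1452557_a_at on the log2 scale. The LAP knockout-labelled levels lay above the filter level on 1 of 3 arrays for 1425763_x_at and 1421653_a_at, and with lower levels raised to it their interactions were -9.08 and -9.07.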

How the results depend on the processing

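The naming rule of constant regions and largest called changes gave 66 calls, and further members named in the text are not in this count. Of the 66 calls, 40 held under every alternative run, 24 were lost at least once and 2 reversed. Both reversals were in empty-vector LB31 against knockout-labelled marrow with median centring: Ighm 1427329_a_at at 0.28 and Ighm 1427351_s_at at 0.10. Without _s_at and _x_at members the counts of called members were 19 (LAP knockout-labelled against wild-type), 14 (against knockout-labelled), 18 (against LAP transgenic), 9 (knockout-labelled against wild-type), 3 (LAP transgenic against wild-type), 5 (interaction), 3 (BLNK against empty vector), 3 (BLNK against YF) and 15 (LB31 against marrow). With 1-symbol members alone the LB31 counts were 3 (BLNK against empty vector) and 2 (BLNK against YF). As deposited, YF against empty vector had 1 and BLNK against YF had 2; with median centring these were 1 and 4. The first 2 settings test fewer members, so lower counts follow in part by construction. In LB31 the called share of tested kappa members also differed. For BLNK against empty vector it was 3 of 10 with 1 symbol and 5 of 7 with several symbols. For BLNK against YF it was 2 of 10 and 5 of 7. The causes of these differences and of the scaling shifts were not tested.

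Leaving out each array gave LAP knockout-labelled marrow 32 to 35 called members against wild-type, 24 to 29 against knockout-labelled and 30 to 31 against LAP transgenic marrow. The ranges were 13 to 15 for knockout-labelled and 1 to 5 for LAP transgenic against wild-type marrow, and 15 to 16 for the interaction. In LB31 they were 5 to 12 for BLNK and 0 to 2 for YF against empty vector (2 without empty-vector array 1), 4 to 7 for BLNK against YF, and 25 to 30 against marrow.

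Values as deposited moved the median of all probe sets on the log2 scale to 0.33 (LAP knockout-labelled against wild-type), 0.31 (knockout-labelled against wild-type), 0.40 (LAP knockout-labelled against LAP transgenic), 0.31 (YF against empty vector) and -0.42 (LB31 against marrow). All probe sets then split into 6258 higher and 652 lower in knockout-labelled against wild-type marrow, where quantile normalization gave 1881 and 1944; the member split was 3 higher and 13 lower, where it had been 1 and 15. Same-numbered arrays deviated together with r of -0.08 to 0.215 in marrow (18 pairs) and -0.026 to 0.016 in LB31 (9 pairs). The numbers were therefore not used as pairs. With 3 arrays a group, such low correlations cannot exclude a pairing. With the replicate block the called members were 38, 27, 32, 16, 6, 15, 9, 0, 7 and 31 in the order of the leave-one-out ranges above, none beyond 1.5 times the count without it. MAS5 signals near the filter level limit the dim V gene and Ighg3 members.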
